A study of Homo sapiens with 9 samples.

Results

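Small heat shock proteins, the collagen chaperone gene SERPINH1 and the heat shock factor genes HSF1 and HSF2 were followed in LNCaP, an androgen-responsive line of human prostate cancer cells. All probe sets (groups of array probes read as 1 value) annotated to the symbols HSPB1, HSPB8, CRYAB, HSPB2, HSPB3, SERPINH1, HSF1 and HSF2 were taken. They came to 8 probe sets of 22215 tested, for 7 of 11963 measured genes, with 2 probe sets for HSF1 and 1 for each of the other genes. HSF2 is not analysed here. Every culture first spent 2 days in 10% serum stripped of steroid hormones with charcoal. One group then received the solvents ethanol and DMSO (vehicle), the second 1 nM of the synthetic androgen R1881 with DMSO, and the third 20 µM of gedunin, a limonoid from plants that is known to impair HSP90, along with 1 nM R1881. Each group had 3 Affymetrix arrays marked as biological replicates. No group received gedunin alone, and all cells come from 1 line. The treatment is given as 24 h, but titles of the R1881 arrays give 6 h where their descriptions give 24 h.

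Small heat shock proteins are chaperones without ATPase activity that share an alpha-crystallin domain and hold unfolding proteins until HSP70 machines refold them or autophagy clears them. Heat shock factors are transcription factors that bind repeats of the unit NGAAN. HSF1 is held inactive by chaperones, HSP90 among them, and is set free when unfolded protein or an HSP90 inhibitor occupies these chaperones. HSF1 is known to be controlled mainly through its protein, by trimer formation, phosphorylation and nuclear entry. In prostate cells HSPB1 is known as a chaperone of the androgen receptor.

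The labels of the control groups were checked first, and androgen genes went against them. Androgen is known to induce KLK2, KLK3, TMPRSS2 and FKBP5. On the arrays labelled R1881, KLK2 was 20.2-fold lower than on those labelled vehicle, KLK3 8.84-fold and TMPRSS2 16.9-fold. FKBP5 averaged 1815 on the arrays labelled vehicle and 45.1, under the mark of 52.4 used here, on those labelled R1881. Groups are therefore named by their labels, and each direction that involves the arrays labelled vehicle or labelled R1881 rests on labels that these genes contradict. If the labels were exchanged, the first comparison below would turn its sign and the second and the third would trade places. Probe sets of 8 luminal prostate markers, KLK3, KRT8, KRT18 and FOXA1 among them, averaged above the lowest array median of 52.4 in every group. They were far from steady: 2 were higher and 5 lower in the comparison of the arrays labelled R1881 with those labelled vehicle (median log2 fold change -2.56), 5 higher and 3 lower on the gedunin arrays than on those labelled R1881 (1.21), and 1 higher and 7 lower than on those labelled vehicle (-0.91), by limma. The part of these shifts in the results below was not tested. Marker lists of fibroblasts, basal epithelium and leukocytes had 0 of 9, 0 of 5 and 0 of 7 genes called in each comparison by limma, with at most 1 gene a direction at an unadjusted p under 0.05. RMA intensities have no detection call, so 52.4 is used as a cautious mark. It is not a measured background, and a level under it is only not shown here to be above background. Differences can still pass under the mark, as for the collagen gene COL5A2 below.

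HSPB1 and HSPB8 were higher on the gedunin arrays than in both control groups, CRYAB passed the test against the arrays labelled vehicle but not against those labelled R1881, and the other members did not pass in any comparison. Against the arrays labelled vehicle, HSPB1 was 2.89-fold higher (95% interval 2.64 to 3.17) and CRYAB 1.27-fold (1.12 to 1.43). HSPB8 was 3.07-fold higher there as fitted (2.60 to 3.63), but from a mean of 49.5 that was not above background, and the value depends on how such low levels are treated: with 50 added to each intensity its log2 fold change was 1.02 in place of 1.62. Against the arrays labelled R1881, HSPB8 was 2.49-fold higher as fitted (2.10 to 2.94) and HSPB1 2.04-fold (1.86 to 2.24). HSPB8 averaged 61.0 on those arrays, and with 50 added its log2 fold change was 0.86 in place of 1.32. That of HSPB1 was then 1.01. Adding 50 shrinks changes of dim probe sets by construction, so the order of the 2 genes depends on how low levels are treated. The turned order does not show which gene changed more. HSPB1 was also 1.42-fold higher on the arrays labelled R1881 than on those labelled vehicle (1.29 to 1.55). The first comparison sets the arrays labelled R1881 against those labelled vehicle. The second sets the gedunin arrays against those labelled R1881, and the third against those labelled vehicle. By limma over all probe sets, 1, 2 and 3 of the 8 probe sets were called higher in these comparisons, in that order. Over all 22215 probe sets 14.8%, 12.4% and 12.9% were called higher. The first share, 1 of 8, is near that background. No member was called lower (0 of 8 in each comparison, also 0 at an unadjusted p under 0.05), where 12.2%, 11.9% and 10.6% of all probe sets were. With a minimum of 1.5-fold added, 0, 2 and 2 members were called higher beside 3.53%, 3.89% and 3.21% of all probe sets, and no member lower (0 of 8 in each, by limma, and 0 at an unadjusted p under 0.05) beside 4.2%, 2.58% and 2.87%. The median log2 fold change of the 8 probe sets was 0.02, 0.08 and -0.05, beside 0.00, -0.01 and -0.01 over all probe sets. In RNA from whole cultures, more transcript per cell and a larger share of cells with the transcript cannot be told apart. The second and the third comparison share the gedunin arrays, so their folds are not independent of each other.

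**Figure D1:**
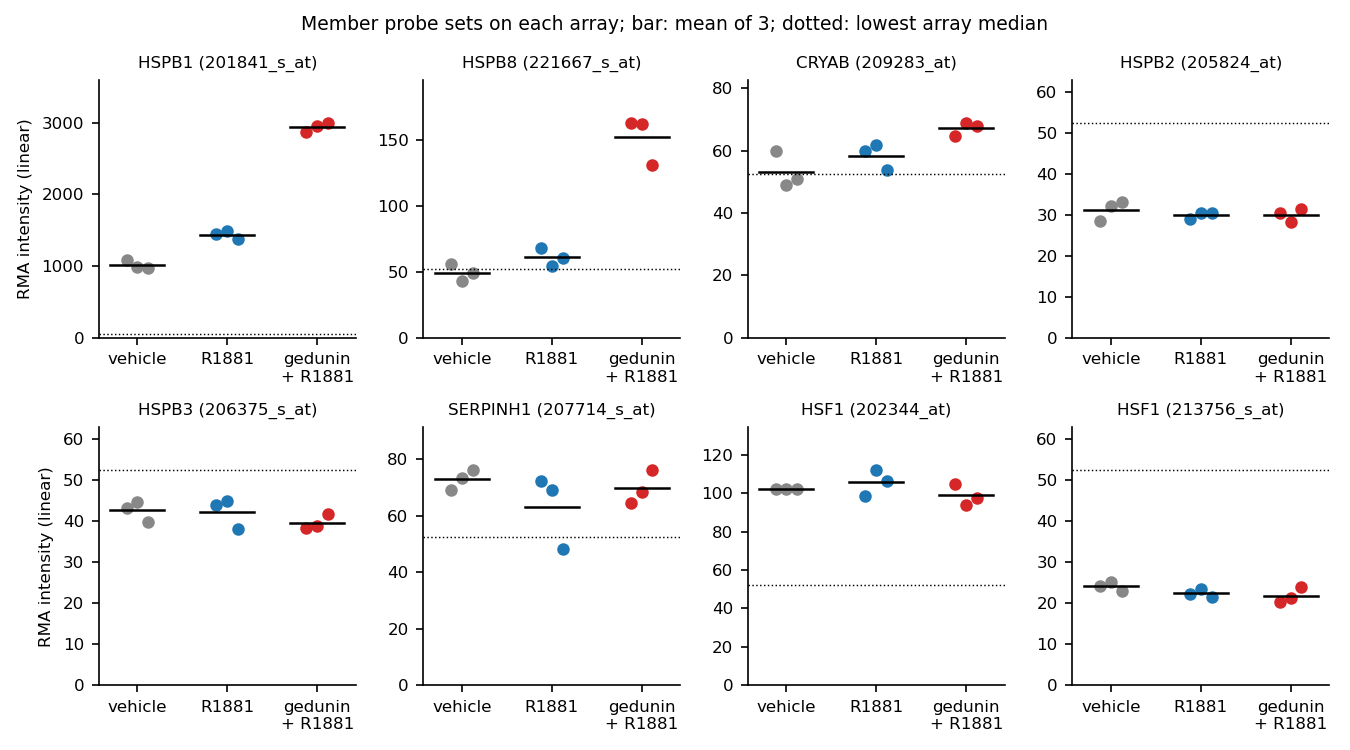
Intensity (RMA, linear axis from 0) of each member probe set on the 9 arrays, by label. Points are arrays, bars are means of 3 and the dotted line is the lowest array median, 52.4. The gedunin arrays stand apart for HSPB1 (2875 to 2997) and HSPB8 (131 to 163), while HSPB2, HSPB3 and the dimmer HSF1 probe set lie under the dotted line on every array.

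The stretch of 250 bases before the RefSeq start (GRCh38.p14) is shown for HSPB1 and HSPB8, which rose on the gedunin arrays, and for SERPINH1 (the first of its starts), which did not pass the test. Capitals mark inverted pairs of the heat shock unit, spelled GAANNTTC or TTCNNGAA. Both spellings read the same on either strand, and 11.6% of 35116 RefSeq windows of this length hold at least 1 of them. Positions are chr7:76302423-76302672, chr12:119178681-119178930 and chr11:75562003-75562252, all on the plus strand.
HSPB1: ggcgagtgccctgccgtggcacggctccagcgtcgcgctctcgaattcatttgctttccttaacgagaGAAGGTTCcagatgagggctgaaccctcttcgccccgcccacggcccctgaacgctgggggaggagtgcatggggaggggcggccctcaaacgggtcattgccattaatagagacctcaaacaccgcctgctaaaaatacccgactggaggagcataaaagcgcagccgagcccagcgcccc
HSPB8: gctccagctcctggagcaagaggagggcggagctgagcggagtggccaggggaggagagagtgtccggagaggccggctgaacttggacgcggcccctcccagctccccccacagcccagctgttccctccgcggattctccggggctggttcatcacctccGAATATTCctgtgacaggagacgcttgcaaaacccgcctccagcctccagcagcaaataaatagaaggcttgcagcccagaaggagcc
SERPINH1: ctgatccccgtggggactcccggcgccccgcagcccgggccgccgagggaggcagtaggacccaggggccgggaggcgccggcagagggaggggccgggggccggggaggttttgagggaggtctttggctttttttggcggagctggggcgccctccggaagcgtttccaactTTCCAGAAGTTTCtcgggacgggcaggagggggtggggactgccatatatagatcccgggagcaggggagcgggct
HSPB1 holds 1 match, GAAGGTTC, 182 to 175 bases before the start. HSPB8 holds 1, GAATATTC, 88 to 81 bases before it. In SERPINH1 both spellings overlap in TTCCAGAAGTTTC, 76 to 64 bases before the start, which makes a run of 3 alternating units. Such a run, either spelling extended by the next unit in the opposite direction at the same spacing, stands in 0.441% of all windows. The spelling TGACNNNGC, the core of the antioxidant response element, stands on either strand in 10.9% of windows and in none of these 3. SERPINH1 has another RefSeq start, and the window before that one holds no match. HSPB3, which did not pass the test, holds TTCTTGAA 242 to 235 bases before its start and a match to TGACNNNGC. The windows of HSF2 hold no match to any of these spellings. A match describes the letters only, and no binding was measured.

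HSPB1 encodes HSP27, a stress-induced chaperone that also binds actin and is phosphorylated by kinases of the p38 pathway. Its intensity was 1089.5, 992 and 969.9 on the arrays labelled vehicle, 1452, 1492 and 1376 on those labelled R1881, and 2875, 2949 and 2997 with gedunin plus R1881. The 3 groups did not overlap in any of the 3 comparisons, in the order labelled vehicle, labelled R1881, gedunin plus R1881. Group means were 1017 ± 63.6, 1439.9 ± 58.8 and 2941 ± 61.4 (SD, n = 3), so each step between groups exceeded the spread within them. The log2 fold change was 0.50 ± 0.06 (SE, adjusted p = 3.46e-05 in limma) in the first comparison, 1.03 ± 0.06 (adjusted p = 6.16e-08) in the second and 1.53 ± 0.06 (adjusted p = 1.99e-09) in the third. Ordered from the highest log2 fold change, HSPB1 stood at rank 1042 of 22215 in the first comparison, 297 in the second and 79 in the third. The probe set's name ends in _s_at, which marks probes that can match several related transcripts. Copies of near-identical sequence would thus be read with HSPB1. The probe sets of HSPB8, HSPB3 and SERPINH1 and the dimmer one of HSF1 carry the same ending and the same limit.

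HSPB8 encodes HSP22, which works with the co-chaperone BAG3 in sending misfolded proteins to autophagy. It measured 55.8, 43.2 and 49.4 on the arrays labelled vehicle, 67.9, 54.4 and 60.7 on those labelled R1881, and 163, 162 and 131 with gedunin plus R1881. The gedunin arrays lay above all 6 others, whereas both control groups overlapped. The mean of the arrays labelled vehicle, 49.5 ± 6.27, was under the mark of 52.4. HSPB8 was higher by 1.32 ± 0.11 on the log2 scale (SE, adjusted p = 1.73e-06 in limma) than on the arrays labelled R1881 and by 1.62 ± 0.11 (adjusted p = 2.91e-07) than on those labelled vehicle. Between the control groups it differed by 0.30 ± 0.11 (95% interval 0.06 to 0.55, adjusted p = 0.0634) and did not pass. Leaving out vehicle replicate 1 or R1881 replicate 2 brought this last difference past the threshold, at 0.39 (adjusted p = 0.0303) and 0.38 (adjusted p = 0.0349). Without any other single array of these groups it did not pass in limma, at 0.21 to 0.31 (adjusted p from 0.117 to 0.238).

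The changes of HSPB8 and HSPB1 were compared within arrays, as the difference of their log2 values. The change of HSPB8 minus that of HSPB1 was -0.20, 0.28 and 0.09, by order of comparison. Exact two-sided permutation tests gave p = 0.3, 0.3 and 0.5 (0.45, 0.45 and 0.5 adjusted over the 3 comparisons), where 3 arrays against 3 allow 0.1 at best. These tests could not have passed 0.05, so they do not settle whether the 2 genes responded unequally.

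CRYAB encodes alphaB-crystallin, a lens and muscle chaperone that is also induced by heat shock in many cells. Its intensity was 59.7, 48.9 and 50.9 on the arrays labelled vehicle, 59.7, 61.6 and 53.8 on those labelled R1881, and 64.8, 68.8 and 67.8 with gedunin plus R1881. All values lay near the array median, and the gedunin arrays were above all 6 others by a small margin. The difference passed against the arrays labelled vehicle (log2 fold change 0.34 ± 0.08, SE, adjusted p = 0.00657) but not against those labelled R1881 (0.20 ± 0.08, adjusted p = 0.0878). It was 0.14 ± 0.08 between the control groups (adjusted p = 0.251), and among the alternatives passed there only without vehicle replicate 1, at 0.22 (adjusted p = 0.0455). Non-overlap between 2 groups was common. The group named first in a comparison lay wholly above the other for 19.8%, 16.6% and 17.8% of all probe sets, by order of comparison. The same held for 1, 3 and 3 of the 8 members. That group lay wholly below the other for 17.1%, 18% and 17.7% of all probe sets and for 0 members. These shares are for pairs of groups, and none was computed for lying above all 6 other arrays. Of 10 muscle markers 2, MYOG and TTN, were lower and 0 higher on the gedunin arrays than on those labelled vehicle in limma, also 0 higher at an unadjusted p under 0.05, where 11.4% of all genes were lower and 14.8% higher. TTN was under 52.4 in every group. MYOG averaged 50.4 with gedunin and 50.4 under the R1881 label, also below that mark. Summed over all 10 muscle markers, intensity ran from 583 to 614 on the gedunin arrays and 599 to 622 on those labelled vehicle. Under the R1881 label the sum ran from 809.8 to 902. The marker MB averaged 327 under the vehicle label, 614 under the R1881 label and 336 with gedunin. It passed in the first and the second comparison (log2 fold change 0.91 and -0.87).

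HSPB2 and HSPB3 encode small heat shock proteins found mainly in heart and skeletal muscle, where they form a complex with each other. HSPB2 measured 28.4, 32.1 and 33.2 on the arrays labelled vehicle, 29.0, 30.4 and 30.4 on those labelled R1881 and 28.2 to 31.4 on the gedunin arrays. HSPB3 measured 39.8 to 44.8, 38.1 to 44.8 and 38.3 to 41.6 in the same order. Both genes lay under 52.4 on all 9 arrays and their groups overlapped in each comparison, so neither was shown to be above background here. HSPB2 lies within the RefSeq span of CRYAB. At this level the array does not show whether HSPB2 changed with its neighbour.

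SERPINH1 encodes HSP47, an endoplasmic reticulum chaperone of procollagen and a known target of HSF1. It measured 69.2, 73.2 and 76.0 on the arrays labelled vehicle, 72.1, 69.2 and 48.1 on those labelled R1881, and 64.5, 68.2 and 76.1 with gedunin plus R1881. R1881 replicate 3 stood below the other 8 arrays, and the groups overlapped in each comparison. The log2 fold change was -0.23 ± 0.13 (SE, adjusted p = 0.231), 0.16 ± 0.13 (adjusted p = 0.447) and -0.07 ± 0.13 (adjusted p = 0.789), by order of comparison. Without R1881 replicate 3 the first value was -0.04 and the second -0.02. The 95% interval of the third comparison, 0.79-fold to 1.15-fold, does not include a rise in intensity of the size seen for HSPB1 or HSPB8. Group means were 72.8 (labelled vehicle), 63.1 (labelled R1881) and 69.6 (gedunin), not far above the mark of 52.4. R1881 replicate 3, at 48.1, lay under that mark. The share of background in this signal was not measured, so the interval bounds the intensity of this probe set and not the transcript.

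HSF1 encodes the main heat shock transcription factor. Its brighter probe set measured 102.1, 102.2 and 102.1 on the arrays labelled vehicle, 98.6, 112 and 107 on those labelled R1881, and 105, 93.9 and 97.8 on the gedunin arrays. The groups overlapped, and the log2 fold changes were 0.05, -0.10 and -0.05, each ± 0.06 (SE), with adjusted p = 0.655, 0.348 and 0.689 in limma. On the gedunin arrays the intensity of this probe set lay between 0.85-fold and 1.03-fold of its level on the arrays labelled R1881 (95% interval). Against the arrays labelled vehicle it lay between 0.88-fold and 1.06-fold. The other probe set measured 20.3 to 25.2 over the 9 arrays, under the mark of 52.4, with log2 fold changes of -0.11, -0.04 and -0.15. The last of these passed only without gedunin replicate 3 (-0.22, adjusted p = 0.0456).

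**Figure D2:**
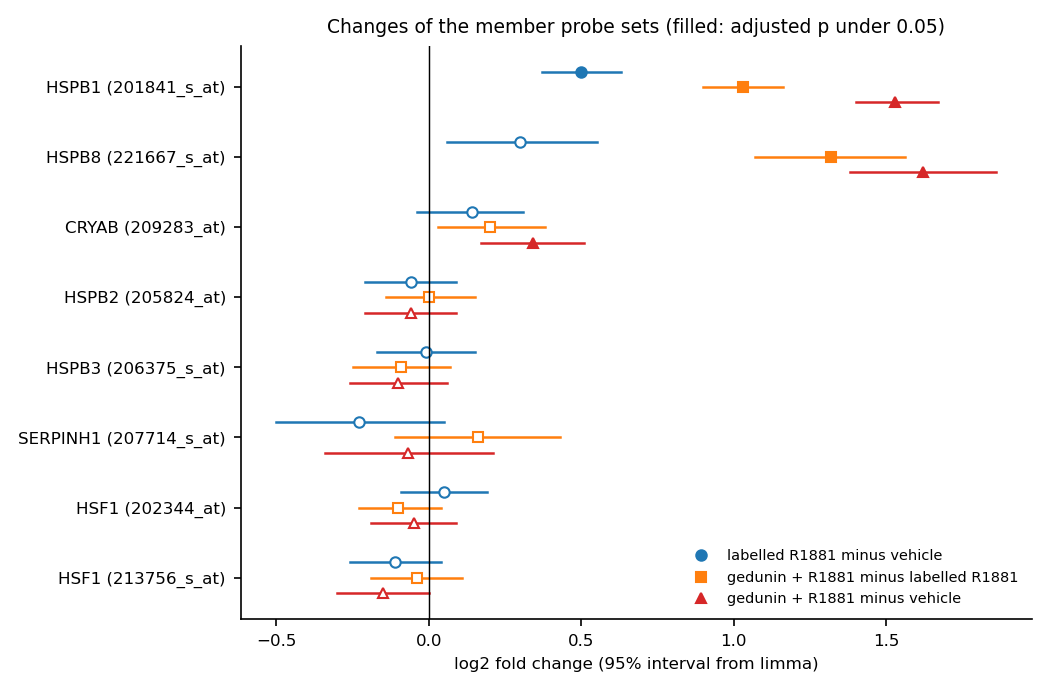
Log2 fold change (horizontal axis) with its 95% interval from limma for the 8 member probe sets in the 3 comparisons. Filled symbols passed an adjusted p of 0.05. HSPB1 and HSPB8 have lower bounds of 0.90 or more in both gedunin comparisons, and the intervals of HSPB2, HSPB3, SERPINH1 and the brighter HSF1 probe set include 0 in each comparison.

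The other genes of the heat shock response were taken as a list of 25 cytosolic and mitochondrial chaperone genes linked to HSF1, of which 20 were measured. Counts use the brightest probe set of each gene. On the gedunin arrays 14 of 20 were higher and 0 lower than on the arrays labelled R1881 (1 lower at an unadjusted p under 0.05), and 19 were higher and 0 lower than on those labelled vehicle (0 lower unadjusted), by limma. Of these 19, HSPA4L (means of 23.5 and 45.0, vehicle label first) and DNAJB6 (21.1 and 30.6) were under 52.4 in both groups. HSPA1L and DNAJB4 started there from means under 52.4. Over all 11963 genes 13.7% and 14.8% were called higher in these comparisons, and 13% and 11.4% lower. The list's median log2 fold change was 0.33 and 0.56, beside -0.01 over all genes in each. Between the control groups 7 of 20 were higher and 2 lower on the arrays labelled R1881, where 16.3% and 13.2% of all genes were, and the list's median was 0.08.

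BAG3, the partner of HSPB8, rose by 1.49 ± 0.05 (log2, SE) against the arrays labelled R1881 and 1.21 ± 0.05 against those labelled vehicle. The HSP40 gene DNAJB4 averaged 152 on the gedunin arrays but 48.3 and 45.2 on those labelled R1881 and labelled vehicle. Its fitted 1.64 and 1.73 therefore start from means under the mark of 52.4. HSP90AA1, the inducible HSP90, rose by 0.74 and 0.95, and its other probe sets reached 1.52 in the latter comparison. HSPH1, an HSP110 nucleotide exchange factor, rose by 1.00 and 0.96, and DNAJB1, an HSP40 co-chaperone that stimulates HSP70, by 0.90 and 0.57. CACYBP, a protein that binds S100 proteins and the ubiquitin ligase SIAH1, rose by 0.26 and 0.95, though its other probe sets reached -0.03 and -0.10. HSPA4L, an HSP110 family gene, was higher by 1.25 on the arrays labelled R1881 than on those labelled vehicle, where its mean of 23.5 was under 52.4. CACYBP rose by 0.69 there, though its other probe sets reached -0.08. HSPA1L, an HSP70 gene, rose there by 0.39, from a mean of 49.5 that was also under 52.4. BAG3 and DNAJB1 fell by 0.28 and 0.32 in that comparison, in which HSPB1 rose by 0.50. HSPA6, an HSP70 gene that is silent in most unstressed cells, was the 1 gene of the list not called in the third comparison, with means of 32.9, 31.6 and 31.5 on the arrays labelled vehicle, labelled R1881 and given gedunin.

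**Figure D3:**
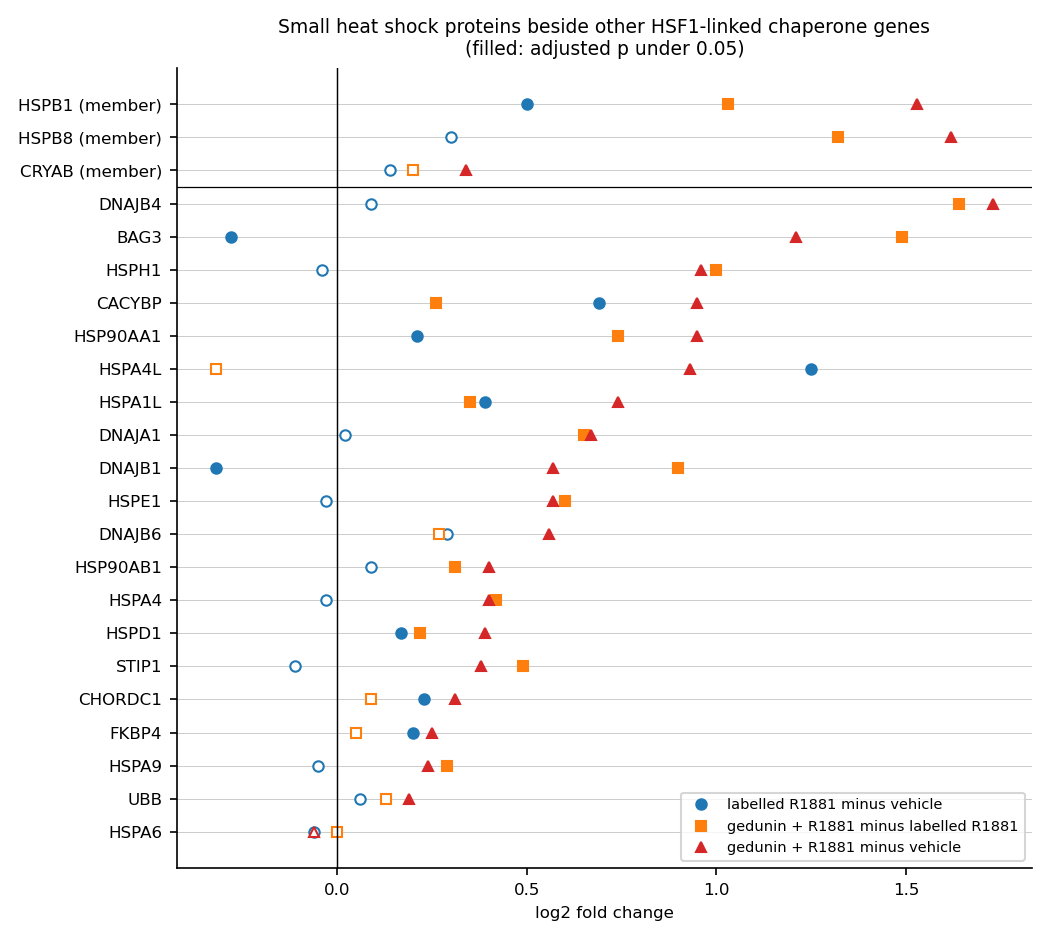
Log2 fold changes (horizontal axis) of HSPB1, HSPB8 and CRYAB above the line and of 20 other HSF1-linked chaperone genes below it, in the 3 comparisons; filled symbols passed an adjusted p of 0.05. Of the 20 genes, 19 lie right of 0 with filled triangles, from UBB at 0.19 to DNAJB4 at a fitted 1.73. Among these, HSPA4L and DNAJB6 averaged under 52.4 in both groups of the third comparison.

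Of those 20 genes, 19 had a RefSeq promoter, and 11 of these held at least 1 inverted pair of heat shock units in the 250 bases before a start. A run of 3 units stood in 6: CHORDC1, DNAJB6, HSP90AA1, HSP90AB1, HSPA6 and HSPD1. A gene is counted if the window before any of its starts matches, so these counts are not comparable with the shares of single windows above. Among these 6 the third comparison ran from -0.06 for HSPA6 to 0.95 for HSP90AA1 on the log2 scale, with HSPA6 and DNAJB6 under 52.4 in every group. SERPINH1, with a run of 3, was at -0.07. BAG3 held no match in this window, which says only that these letters are not there.

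The other small heat shock protein genes, HSPB6, HSPB7, CRYAA and ODF1, did not pass in any comparison (0 of 4 by limma, with at most 1 gene a direction at an unadjusted p under 0.05). Their means ran from 43.0 for HSPB7 to 86.2 for HSPB6. Among 10 measured relatives and partners of heat shock factors, 2 were higher and 3 lower in the first comparison, 1 and 1 in the second and 1 and 1 in the third. Over all genes 16.3% were higher and 13.2% lower in the first, 13.7% and 13% in the second, and 14.8% and 11.4% in the third. These counts are near the background, apart from the 3 of 10 lower in the first comparison, which exceed their 13.2%. XPO1, the nuclear export receptor, was at 0.96, -0.62 and 0.34 (log2), DAXX, a nuclear HSF1 partner, at -0.27, 0.25 and -0.01, and HSF4, a lens heat shock factor, at -0.21, -0.04 and -0.25, of which DAXX in the third and HSF4 in the second comparison did not pass. EP300, an acetyltransferase, was at -0.21 in the first, and its other probe set at 0.05. HSBP1, which binds HSF1 trimers, differed by 0.17 in the first comparison (adjusted p = 0.0496) and did not pass in the others.

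BAG3-dependent autophagy, the route on which HSPB8 works, had 3 of 7 measured genes higher and 0 lower in the second comparison, also 0 lower at an unadjusted p under 0.05 in limma, and 3 higher and 1 lower in the third. In the first comparison 1 was higher and 2 were lower. All genes were called higher in 16.3%, 13.7% and 14.8% and lower in 13.2%, 13% and 11.4%, by order of comparison, and BAG3, 1 of the genes that rose on the gedunin arrays, is also in the chaperone list. SQSTM1, the autophagy receptor p62, was 3.20-fold higher on the gedunin arrays than on those labelled R1881 (log2 fold change 1.68 ± 0.05, SE) and 3.48-fold higher than on those labelled vehicle (1.80 ± 0.05), while its other probe set was at 1.16 and 0.97. WIPI1, an autophagosome protein, measured 238 ± 8.24 on the arrays labelled vehicle, 30.5 ± 3.58 on those labelled R1881 and 64.7 ± 3.82 on the gedunin arrays (SD, n = 3). The level on the arrays labelled R1881 was under 52.4, so the fitted 1.09 of the second comparison starts from under that mark. WIPI1 fell by 1.88 in the third. TSC1, a repressor of mTOR signalling, was higher by 0.33 and 0.27 in the first and the third. STUB1, the ubiquitin ligase CHIP, was at 0.06, 0.00 and 0.06 and did not pass.

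Of 8 measured genes of the p38 pathway and its HSPB1 kinases, 3 were higher and 1 lower in the first comparison, 2 higher and 3 lower in the second, and 5 higher and 0 lower in the third (0 lower at an unadjusted p under 0.05 as well, in limma). The shares over all genes were 16.3% higher and 13.2% lower, 13.7% and 13%, and 14.8% and 11.4%, in that order. PRKD1, protein kinase D1, was at 1.83, -0.96 and 0.87 on the log2 scale, each ± 0.05 (SE), while its other probe set was at 0.48, -0.48 and 0.00. MAPKAPK3, which phosphorylates HSPB1, was at 0.70, -0.48 and 0.21 on the log2 scale (other probe set 0.44, -0.49 and -0.06) and MAP3K5, the kinase ASK1, at -0.64, 0.86 and 0.22 (other probe set -0.34, 0.49 and 0.16). MAP2K6, a kinase of p38, rose by 0.55 in the first and fell by 0.64 in the second, which its other probe set did not show (0.09 and -0.04). DUSP1, a phosphatase of p38, rose by 0.87 and 0.80 on the gedunin arrays, where its other probe set was at 0.43 and 0.40. MAPKAPK2, the main HSPB1 kinase, was at 0.02, 0.12 and 0.14 and did not pass.

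Collagens and collagen-folding enzymes, the partners of SERPINH1, were all measured (22 genes). In the first comparison 4 were higher and 6 lower, in the second 6 and 5, and in the third 4 and 1, with medians of -0.05, 0.03 and 0.03. Among all genes 16.3%, 13.7% and 14.8% were higher and 13.2%, 13% and 11.4% lower, so the shares called higher in the first and the third comparison are near the background. The genes P4HA1 and P4HA2, subunits of prolyl 4-hydroxylase, rose by 0.70 and 1.35 (log2) against the arrays labelled R1881 and by 0.46 and 1.11 against those labelled vehicle. PPIB, the endoplasmic reticulum prolyl isomerase, measured 6732 ± 35.9, 3699 ± 42.8 and 6807 ± 78.2, and P4HB, protein disulfide isomerase, 2464 ± 159, 1406 ± 46.9 and 2463 ± 86.5, on the arrays labelled vehicle, labelled R1881 and given gedunin (SD, n = 3). Both were lower on the arrays labelled R1881 than in the other groups, at -0.86 and -0.81 in the first comparison and 0.88 and 0.81 in the second. PLOD1, a lysyl hydroxylase, was at -0.33 in the first. The collagen gene COL5A2 was at 1.12 and -1.04 in these comparisons, with means of at most 37.7, under 52.4. COL4A5 fell by 0.41 and P3H2 rose by 0.31 in the third, from a mean of 47.3 that was under 52.4. SERPINH1 passed in none of these comparisons.

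**Figure D4:**
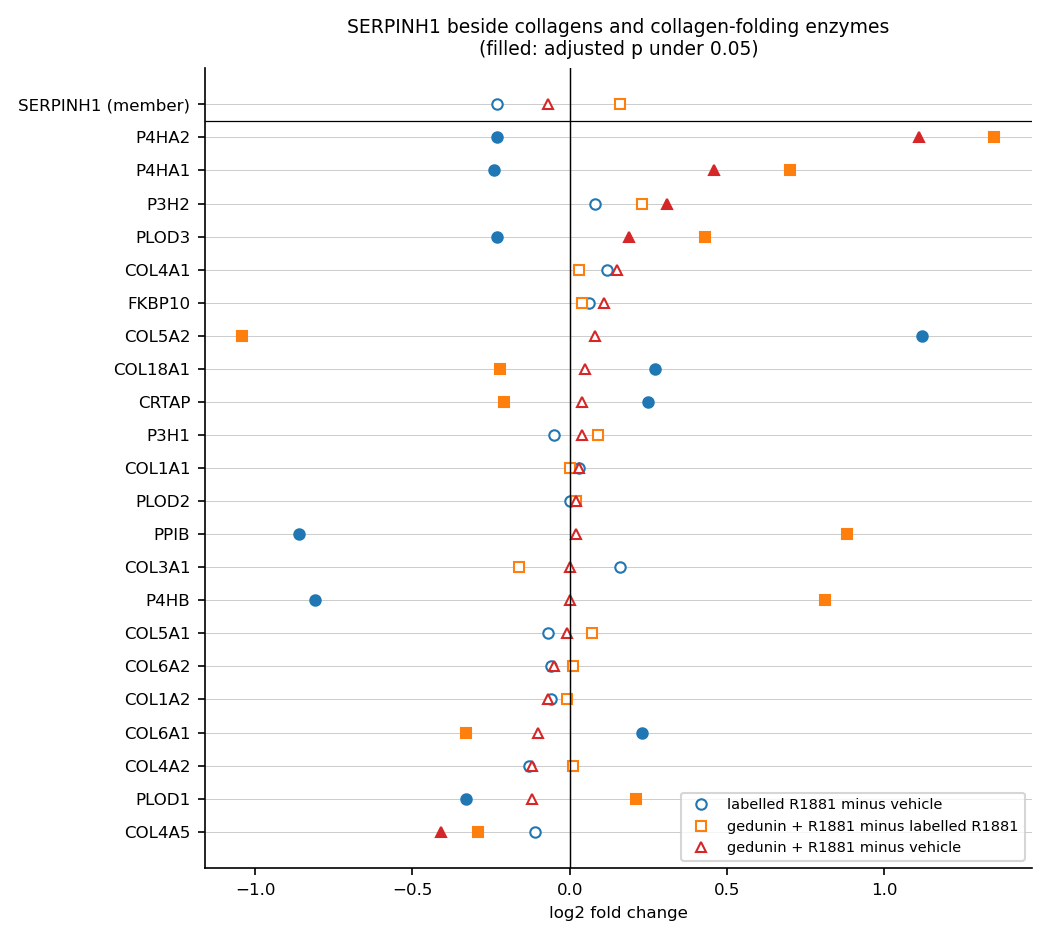
Log2 fold changes (horizontal axis) of SERPINH1 above the line and of 22 collagens and collagen-folding enzymes below it in the 3 comparisons; filled symbols passed an adjusted p of 0.05. P4HA2 is the furthest to the right among gedunin changes at 1.35, and all 3 symbols of SERPINH1 are open.

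The genes whose pattern over the 9 arrays was most like HSPB1 and HSPB8 were sought among 607 genes with a range of group means of at least 1 on the log2 scale. Closest to HSPB1 by Pearson correlation of log2 values were EPHX1 (r = 0.996), TUBB2A (0.994), ID1 (0.993), GCLC (0.991) and TACC3 (0.988). Closest to HSPB8 were GPNMB (0.985), CBR3 (0.985), TRIM16 (0.984), NME5 (0.983) and ALDH3A2 (0.982). HSPB8 ranked 27 for HSPB1 and HSPB1 ranked 22 for HSPB8, at r = 0.968 between them. EPHX1, microsomal epoxide hydrolase, averaged 347, 467 and 871 on the arrays labelled vehicle, labelled R1881 and given gedunin, the order also seen for HSPB1. The 9 arrays fall into 3 groups, so such an r mostly records 3 group means and is given as a description.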

How the data were processed

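RNA was isolated by the Trizol method and hybridised to Affymetrix arrays, per the labels' protocols. The authors deposited a linear intensity per probe set and array, made by RMA according to the submitters' processing notes (software version not given in the sources used here). RMA subtracts background and makes array distributions nearly alike, which hides any difference in the RNA content of cells. The 9 array medians lay between 52.4 and 54.5, and log2 values correlated at r = 0.996 to 0.998 within and 0.975 to 0.985 across groups (over probe sets, which are no replicates). Precision is limited by 3 arrays a group; where replicates are not separate cultures, p-values measure technical spread.

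Of 22277 probe sets, 62 controls were left out; 19064 had 1 gene symbol, 1043 several and 2108 none. Intensities were taken to log2 and compared with limma 3.58.1 in R 4.3.3 (1 coefficient per group over all 9 arrays, contrasts, eBayes without trend), two-sided, with Benjamini-Hochberg adjustment over 22215 probe sets and a threshold of 0.05. On simulated data for the second comparison, 30% of 1.2-fold and 100% of 1.5-fold changes were recovered among 22215 probe sets. Only 50 probe sets were changed there at each fold size, far fewer than were called in the data, so these rates need not hold for the data. The members and gene lists were chosen with earlier results of these data known. Named are all member probe sets, up to 4 called genes per list and comparison with the largest change, 4 androgen genes and the 5 genes most like each member called at 1.5-fold; other names were added after their values were seen. Promoters are RefSeq's (GRCh38.p14); HSPB1, HSPB3, HSPB8, SERPINH1 and HSF2 were matched there. Alternatives covered 1 probe set per gene, a filter on dim probe sets, an offset, re-centring, quantile normalization, robust trend, array weights, pairwise fits, a replicate block, a 1.5-fold minimum and leaving out each array.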

Additional observations from a re-analysis of the deposited data

How the results depend on the processing

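HSPB1 and HSPB8 kept their direction and their call in both gedunin comparisons under all 16 alternatives each. Their log2 fold changes ranged from 0.98 to 1.06 and from 0.86 to 1.42 in the second comparison, and from 1.49 to 1.58 and from 1.02 to 1.72 in the third; the lowest values of HSPB8 come from adding 50 to the intensity, which shrinks changes of dim probe sets by construction. The call of CRYAB in the third comparison was lost under the 1.5-fold minimum alone (0.34). In the first comparison the count of members called higher, 1, became 2 with the filter on dim probe sets and 2 with the robust trend, through HSPB8, and 0 with the 1.5-fold minimum, through HSPB1. Leaving out 1 array gave 1 to 3 there, and 0 to 1 called lower in the third comparison. Replicate numbers did not pair the arrays: 2 of 9 same-numbered pairs had deviations correlated above 0.1 (r from -0.1 to 0.14), and 5 of 18 best matches had the same number. The replicate block gave 2 members called higher in the first comparison (HSPB8, adjusted p = 0.027) and changed no other member's call. Reversals were limited to values near 0: HSPB3 in the first comparison was at 0.037 with array weights and at -0.061 to 0.061 over arrays left out, and in the second HSPB2 was at -0.029 to 0.048, SERPINH1 at -0.0245 to 0.27 and the dimmer HSF1 probe set at -0.11 to 0.0076. The causes were not tested. In all, 355 of 372 values kept direction and call. Of 72 member values, 8 were exactly equal to another array's value for the same probe set. HSPB2, HSPB3 and the dimmer HSF1 probe set were left out by the filter on dim probe sets and have no value there.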
